A study of Sus scrofa with 2 samples.

Results

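Arterial endothelial barcodes of pig endometrium, the inner lining of the uterus, were picked out of droplet single-cell RNA sequencing by the genes SEMA3G and GJA5. A barcode stands for 1 droplet, usually 1 cell, and a UMI for 1 captured RNA molecule. A barcode was taken when SEMA3G and GJA5 together had at least 2 raw UMIs, CLDN5 had at least 1, ACKR1 and SELP together had under 2, and PROX1, MMRN1 and PTPRC had 0. The last 5 genes mark venous endothelium, lymphatic endothelium and leukocytes. By this rule 608 of 25138 barcodes were arterial: 338 of 10045 in library 1 and 270 of 15093 in library 2. The rule reads expression, so the levels of its 8 genes describe the choice and are no finding, and every other gene of the same barcodes is given as a description too.

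The study set endometrium before the receptive period against receptive endometrium, in 1 Yorkshire sow at day 7 and 1 at day 13 after artificial insemination, both 3 years old. The sample titles give no stage. The deposited matrix of library 1 is marked Pre-ER and that of library 2 ER, but no stage is assigned here, and the libraries are set against each other as library 1 and library 2. Each library came from 1 animal, with endometrium taken from both horns of the uterus, and the text does not say whether the horns were pooled. With 1 library a side no difference was tested, and intervals are 95% intervals that cover counting error only.

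Arteries carry blood into the endometrium under high pressure and branch into arterioles and then capillaries. Their endothelium is set apart from that of veins during development by VEGF and Notch signalling: DLL4 and JAG1 are Notch ligands, NOTCH4 a receptor, and HEY1 and HEY2 target genes, while EFNB2 marks arteries and its receptor EPHB4 veins. Cells of arteries are coupled by the connexins encoded by GJA4 and GJA5, SEMA3G encodes a secreted semaphorin of arterial endothelium, and CLDN5 a tight junction protein. During the cycle and early pregnancy the vessels of the uterine lining grow and remodel.

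Arterial barcodes made up 3.36% of library 1 (exact Clopper-Pearson interval 3.02 to 3.74%) and 1.79% of library 2 (1.58 to 2.01%). Their median depth was 4084 UMIs in library 1 and 6516 UMIs in library 2. The share was higher at greater depth, from 2.39% of barcodes with under 2000 UMIs to 5.63% of those with at least 10000 in library 1, and from 0.391% to 2.99% in library 2. It was lower in library 2 in each of 4 depth classes. After every barcode was thinned to 1000 UMIs the rule held for 1.14% of library 1 and 0.325% of library 2. Enzyme digestion sets how many cells of each type reach a droplet, so the share is one of barcodes and not of the tissue.

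RNA of other cells was present in these barcodes and differed between the libraries. Scrublet called 47 arterial barcodes (13.9%) of library 1 and 60 (22.2%) of library 2 doublets, beside 11.5% and 16.1% of all barcodes. Of 48 barcode sequences found in both libraries, 0 of the arterial barcodes in library 1 and 1 in library 2 carried one. The stromal collagen gene COL3A1 stood at 2604 CPM in library 1 and 604 CPM in library 2 (CPM, a gene's UMIs scaled to a common total of all UMIs in the group), against 14398 and 4175 CPM in stromal-type barcodes. The gland gene ACP5, which encodes uteroferrin, had a UMI in 95.6% of the arterial barcodes of library 2 and in 0.888% of those of library 1. The 12 listed smooth muscle and pericyte markers with a symbol summed to 1879 and 1288 CPM, beside 1751 and 972 CPM in venous-type and 1870 and 814 CPM in capillary-type barcodes. They were thus close in library 1 and highest in the arterial barcodes among the endothelial groups of library 2. Barcodes with few UMIs of other types (0 of KRT18, at most 2 of ACTA2 and TAGLN, at most 5 of COL1A1, COL3A1 and DCN) numbered 185 and 113. Macrophage markers summed to 31.5 and 34.7 CPM and T and NK cell markers to 28.2 and 257 CPM. Of the latter, KLRF1 alone made up 0.553 and 235 CPM, and in library 2 it was lower in immune-type barcodes (149 CPM) than in arterial or venous-type ones (474 CPM). The T cell gene CD3D had only 3 UMIs in library 1 and 1 in library 2, too few to compare. The chemokine gene CCL5 stood at 20.5 and 17.1 CPM, a log2 ratio of -0.26 (-0.97 to 0.45). The source of the KLRF1 UMIs was not tested.

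SEMA3G carried most of the choice. It had a UMI in 97.9% of the arterial barcodes of library 1 and 91.5% of those of library 2, while GJA5 had one in 66.0% and 68.5%. SEMA3G stood at 627 and 305 CPM, GJA5 at 432 and 258 CPM and CLDN5 at 2403 and 1995 CPM. All of these were lower in library 2. ACKR1, the venous chemokine receptor, had a UMI in 14 barcodes and in 3.

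The label was checked against arterial markers that the rule does not use. Within each library the arterial barcodes were set beside 2 other kinds of endothelial barcode, each with at least 1 CLDN5 UMI and under 2 of SEMA3G and GJA5. Venous-type barcodes (240 in library 1 and 323 in library 2) had at least 2 UMIs of ACKR1 and SELP. Capillary-type barcodes (357 and 704) had at least 2 of PLVAP, KDR and FLT1 and under 2 of ACKR1 and SELP. Of 14 listed arterial markers outside the rule with at least 10 CPM, 8 in library 1 and 5 in library 2 were at least 2-fold above both other types. Over all genes 1.43% and 1.63% were, and nothing is read from the difference since the barcodes were chosen on expression. The markers above both types in both libraries were CXCL12, GJA4, EFNB2 and JAG1. The remaining ones in library 1 were GPIHBP1, HEY1, MECOM and FBLN2, and in library 2 HEY2. HEY2 in library 2 rested on 30 UMIs, and with few UMIs of other cell types its log2 excess of 1.60 over the nearer type became -0.11. The 6 venous markers outside the rule that were measured did not move one way. NR2F2, a venous transcription factor, differed from venous-type barcodes by -1.17 and -1.71 on the log2 scale and VCAM1, an adhesion molecule, by -0.85 and -2.38. IL33 was higher in arterial barcodes, by 1.13 and 0.98, while EPHB4 differed by 0.34 and -0.42. CPE (-0.03, -0.37 to 0.30) and ADAMTS9 (-0.08, -0.36 to 0.19) had intervals that span 0 in library 1. In library 2 both were higher in arterial barcodes, by 0.70 and 0.44.

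The connexin gene GJA4 stood at 268 CPM in arterial barcodes of library 1, against 23.1 CPM in venous-type and 54.1 CPM in capillary-type barcodes. In library 2 it stood at 236, 7.94 and 49.6 CPM. It was therefore about as high in both libraries, and 4.95 and 4.75 times the capillary-type level. EFNB2, which encodes the ligand ephrin-B2, stood at 217 CPM against 29.4 and 60.4 CPM in library 1, and at 292 CPM against 35.6 and 107 CPM in library 2. The Notch ligand gene JAG1 was at 518 CPM against 153 and 173 CPM, and at 296 CPM against 64.5 and 72.9 CPM. NOTCH4 (224 and 166 CPM) and DLL4 (217 and 193 CPM) were graded differently: DLL4 was at the capillary-type level in library 1 (219 CPM) and NOTCH4 was 0.78 and 0.82 above it on the log2 scale. GPIHBP1, which anchors lipoprotein lipase on endothelium, was at 108 CPM against 48.9 CPM in capillary-type barcodes of library 1 but at 139 against 114 CPM in library 2.

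Outside the rule, SCIN had the largest fold over both other types among the genes with at least 50 CPM in both libraries. SCIN encodes scinderin, a calcium-dependent protein of the gelsolin family that severs actin filaments. It stood at 197 CPM in library 1 and 183 CPM in library 2. Venous-type barcodes had 3.68 and 1.91 CPM, capillary-type 2.88 and 4.46 CPM and stromal-type 1.72 and 1.41 CPM. The fold over the nearer type was 53.7 in library 1 and 40.9 in library 2. A SCIN UMI was found in 26.9% (22.3 to 32.0%) and 30.7% (25.3 to 36.6%) of the arterial barcodes, and in 0.755% of stromal-type barcodes of library 2, which have a median of 5001 UMIs. Thinned to 1000 UMIs per barcode, 15.9% and 13.0% of the arterial barcodes had one. So most arterial barcodes had no SCIN UMI, and the UMIs were not those of a single droplet: the richest barcode held 3.92% and 5.35% of them.

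TMEM100, a gene known to respond to BMP signalling through the receptor ALK1 in arterial endothelium, came next with 314 and 208 CPM. Its fold over the nearer type was 15.2 and 14.0. TMEM178A, which encodes a membrane protein of the endoplasmic reticulum, stood at 73.6 and 71.8 CPM with folds of 6.98 and 7.15. MFAP5, which encodes a microfibril-associated glycoprotein of elastic fibres, stood at 70.2 and 79.1 CPM with folds of 6.66 and 10.9. LTBP1, whose protein binds latent TGF-beta in the matrix, was at 248 and 618 CPM with folds of 6.40 and 6.06. These genes were far above the other endothelium in each library, though MFAP5 was also found in stromal-type barcodes, at 45.8 and 23.0 CPM. An MFAP5 UMI was found in 8.9% and 5.76% of stromal-type barcodes, an LTBP1 UMI in 24.8% and 22.4% and a TMEM100 UMI in 8.32% and 11.6%.

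A further 7 genes completed the leading group: PCSK5, a proprotein convertase (70.2 and 475 CPM), ALAS1, the first enzyme of haem synthesis (116 and 282 CPM), ATP13A3, a polyamine transport ATPase (136 and 435 CPM), IGFBP2, which binds insulin-like growth factors (315 and 277 CPM), NEBL, which binds actin (116 and 391 CPM), EGFL8 (152 and 140 CPM) and GJA4 above. PCSK5 was as high in stromal-type barcodes of library 2, at 451 CPM. SPOCK2, a matrix proteoglycan, was at 473 CPM in library 1 and 139 CPM in library 2, and SMAD6, an inhibitor of BMP signalling, at 52.0 and 106 CPM. In all, 58 of 6367 genes (0.911%) were at least 2-fold above both types in both libraries, and 21 (0.33%) at least 2-fold below both. The 58 include SEMA3G, GJA5 and CLDN5 and the 21 include ACKR1 and SELP, all of them genes that the rule uses. JCHAIN, a plasma cell gene, is also among the 58, though 1 barcode held 92.1% of its arterial UMIs in library 2. Taken by library, 1.06% of genes were below both types in library 1 and 0.888% in library 2.

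**Figure D1:**
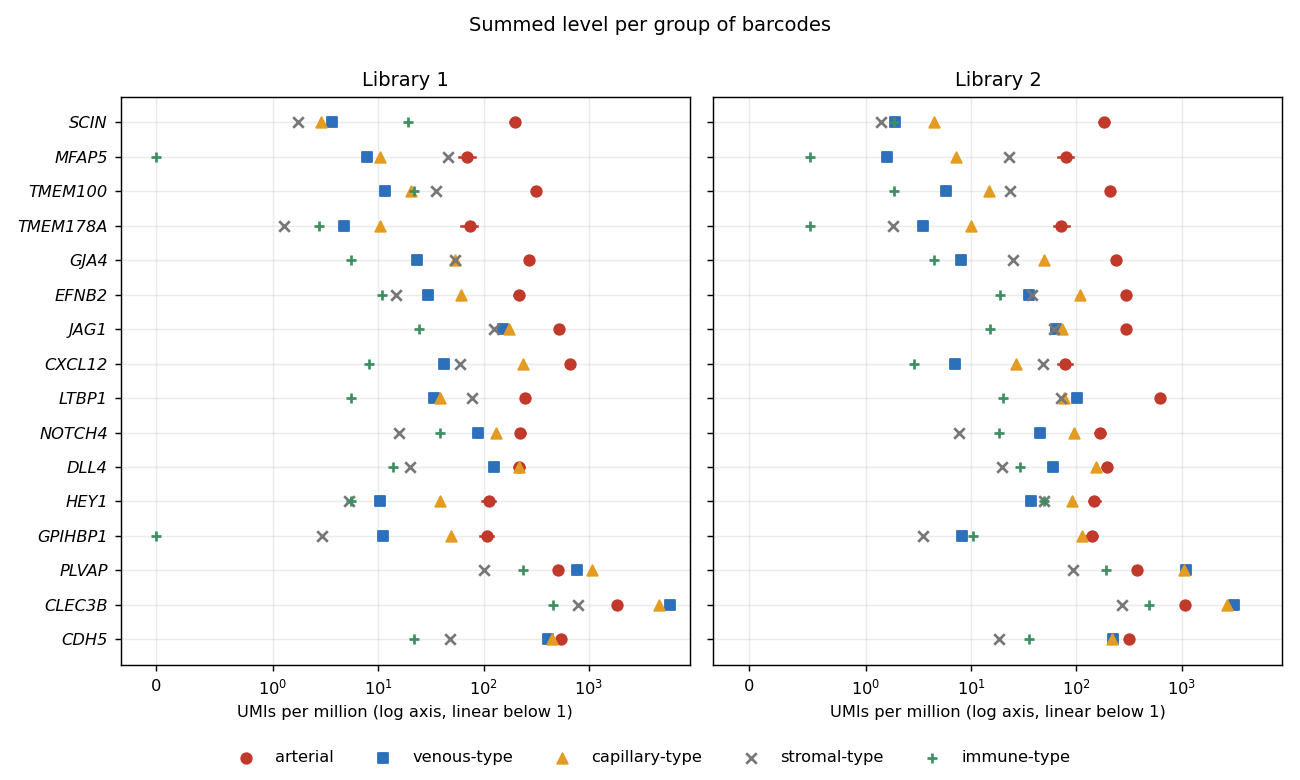
Level of 16 genes outside the rule in each group of barcodes, in CPM on a log axis that is linear below 1, with exact Poisson 95% intervals on the arterial points. SCIN, TMEM100, TMEM178A and GJA4 lie to the right of all other groups in both libraries, PLVAP and CLEC3B lie left of the venous-type and capillary-type points, and CXCL12 moves left in all 3 endothelial groups of library 2.

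Genes at least 2-fold below both other types included APLNR, CLEC3B, MARCKS and PDE2A. The apelin receptor gene APLNR stood at 33.2 and 8.3 CPM in arterial barcodes, against 134 and 32.3 CPM in capillary-type and 113 and 41.3 CPM in venous-type barcodes. CLEC3B, which encodes tetranectin, was among the most abundant endothelial genes, at 1848 and 1080 CPM against 4664 and 2672 CPM in capillary-type and 5906 and 3095 CPM in venous-type barcodes. MARCKS (192 and 95.2 CPM) and PDE2A (58.6 and 20.0 CPM), which encodes a cyclic nucleotide phosphodiesterase, were the others. PLVAP, the protein of endothelial diaphragms, is a rule gene of the capillary-type group and stood at 512 and 377 CPM in the arterial barcodes. The general endothelial gene CDH5, at 542 and 315 CPM, differed from both types by under 2-fold.

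Arterial barcodes were not alike, and they varied with how many SEMA3G and GJA5 UMIs they held. Barcodes just inside the threshold, with a sum of 2, numbered 84 and 86, and endothelial barcodes just outside it, with a sum of 1, numbered 161 and 213. SCIN was at 26.1 CPM inside and 23.8 CPM outside in library 1, and at 49.4 and 17.8 CPM in library 2. From a sum of 2 to a sum of 6 or more, SCIN went from 26.1 to 410 CPM in library 1 and from 49.4 to 345 CPM in library 2. TMEM100 went from 154 to 490 CPM and from 111 to 339 CPM. IL33, the gene of a nuclear alarmin cytokine, went from 293 to 786 CPM and from 386 to 1397 CPM. These genes were highest where the rule genes were highest, in both libraries.

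PLVAP ran the other way, from 1000 to 260 CPM in library 1 and from 580 to 192 CPM in library 2. GPIHBP1 peaked between the extremes. In library 1 it stood at 55.1 CPM at a sum of 1, 158 CPM at 3 to 5 and 50.9 CPM at 6 or more, and in library 2 at 124 CPM at a sum of 1, 191 CPM at 2 and 90.1 CPM at 6 or more. CXCL12 was at 311 CPM at a sum of 1 and between 560 and 773 CPM above it in library 1, with no steady order. Median depth differed less than these levels, from 3192 to 4869 UMIs and from 5626 to 7370 UMIs across the classes inside the rule.

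**Figure D2:**
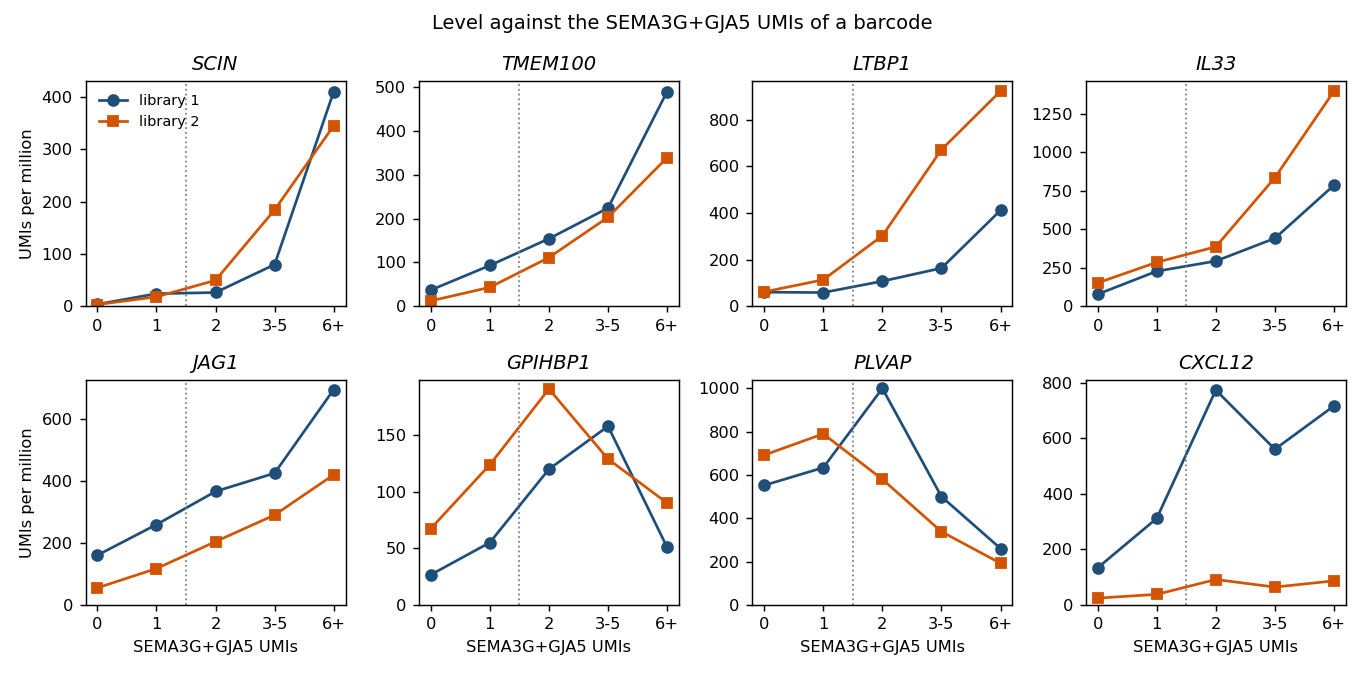
Level of 8 genes outside the rule, in CPM, in endothelial barcodes grouped by their SEMA3G and GJA5 UMIs, with the rule's threshold dotted. SCIN, TMEM100, LTBP1, IL33 and JAG1 climb from a sum of 1 to the right in both libraries, PLVAP descends from a sum of 2 on, and GPIHBP1 is highest in the middle.

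The barcodes were also divided by which of the pair was present. This uses the same UMIs as the sums above, so neither division is support for the other. In library 1, 115 arterial barcodes had SEMA3G without GJA5, 7 had GJA5 without SEMA3G and 216 had both, and in library 2 the numbers were 85, 23 and 162. SCIN stood at 309 CPM in barcodes with both and 29.7 CPM in those with SEMA3G alone in library 1, and at 285 and 13.8 CPM in library 2. MFAP5 was at 117 CPM with both in each library, and where SEMA3G was alone, library 1 had 0 UMIs of it and library 2 had 4.15 CPM. PLVAP stood at 250 against 923 CPM and 183 against 727 CPM. APLNR stood at 4.61 against 77.8 CPM and 1.69 against 20.7 CPM, on few UMIs: 5 against 55 in library 1 and 2 against 15 in library 2. SEMA3G alone therefore went with higher PLVAP and APLNR, and the pair together with higher SCIN and MFAP5. The barcodes with GJA5 alone were few, and in library 2 they held SCIN at 190 CPM, MFAP5 at 148 CPM and GPIHBP1 at 49.3 CPM.

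The gene SCIN itself was used to look for other genes that follow this division. This split was chosen after the values were seen, and it goes with the rule genes. GJA5 stood at 970 CPM with SCIN and 258 CPM without in library 1, and at 431 and 187 CPM in library 2. CLDN5 stood at 4738 against 1646 CPM and 2779 against 1673 CPM. The split is therefore no separate support for the divisions above. In library 1, 91 arterial barcodes had a SCIN UMI and 247 had none, and in library 2, 83 had one and 187 had none. Depth was somewhat lower with SCIN: the median was 3644 UMIs with SCIN and 4363 without in library 1, and 6223 and 6611 in library 2. Called doublets were 15.4% with and 13.4% without in library 1, and 26.5% and 20.3% in library 2. Of 6356 genes, 86 (1.35%) were at least 2-fold higher with SCIN in both libraries and 72 (1.13%) at least 2-fold lower. Within library 1 the shares were 7.32% higher and 5.43% lower, and within library 2 3.37% and 4.36%.

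MFAP5 had the largest difference in favour of barcodes with SCIN. It stood at 269 CPM with SCIN and 5.86 CPM without in library 1, a log2 difference of 5.52 (4.50 to 6.77), and at 235 and 15.2 CPM in library 2, a difference of 3.95 (3.30 to 4.67). By barcodes, MFAP5 was found in 37 and 39, of which 33 and 32 also had SCIN. FBLN5, which encodes the elastic fibre protein fibulin-5, stood at 226 against 53.5 CPM and 119 against 13.1 CPM. LTBP1 was at 590 against 138 CPM and 1167 against 393 CPM. Other matrix genes did not all share this direction. MGP differed by 1.65 and 0.63 and FBLN2 by 0.80 and 0.42, less than FBLN5. COL4A2 differed by -0.57 and -0.65, SPARCL1 by -0.80 and -0.54, EFEMP1, which encodes fibulin-3, by 0.18 and -1.30, and SPARC by 0.16 and -0.22. The growth factor gene FGF2 was at 124 against 19.0 CPM and 148 against 39.3 CPM. PDZK1IP1, a small membrane protein, was at 199 against 9.52 CPM and 116 against 11.7 CPM. JPH4, a junctophilin, differed by 2.41 and 2.71 on the log2 scale. The transcription factor genes GATA6 (2.67 and 1.63 on the log2 scale) and HEY2 (2.06 and 1.67) were higher as well. TMEM100, IL33 and ATP1B1, a subunit of the sodium pump, followed at 1.21 and 1.41, 1.23 and 1.39, and 1.66 and 2.57.

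GPIHBP1, SCARB1 and PLVAP were among the genes lower where SCIN was present. GPIHBP1 stood at 13.6 CPM with SCIN and 138 CPM without in library 1, a log2 difference of -3.35 (-4.82 to -2.20), and at 10.1 and 192 CPM in library 2, a difference of -4.25 (-5.71 to -3.11). SCARB1, the receptor for high-density lipoprotein, was at 49.7 against 428 CPM and 92.2 against 387 CPM. PLVAP was at 72.3 against 655 CPM and 144 against 473 CPM. KDR, which encodes the main VEGF receptor, was at 58.8 against 215 CPM and 45.3 against 140 CPM. CYSLTR2, a leukotriene receptor, stood at 22.6 against 162 CPM and 20.1 against 84.0 CPM. RGCC, SPRY1, an inhibitor of growth factor signalling, and CLEC3B were also at least 2-fold lower in both libraries. GPIHBP1 and MFAP5, both found in the arterial barcodes, thus lay mostly in different ones.

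Other arterial genes followed the division less. JAG1 differed by 0.81 and 0.95 on the log2 scale and EFNB2 by 0.48 and 0.72. GJA4 was at 271 CPM with SCIN and 267 CPM without in library 1, and at 220 and 242 CPM in library 2. DLL4 differed by -0.30 (-0.67 to 0.06) and -0.17 (-0.50 to 0.16) on the log2 scale, and NOTCH4 by 0.27 (-0.05 to 0.59) and 0.13 (-0.21 to 0.47). CXCL12 was divided in library 1, at 233 CPM with SCIN and 807 CPM without, while in library 2 it stood at 67.1 and 82.7 CPM, a difference of -0.30 that became 1.07 with few UMIs of other cell types. AQP1, a water channel of endothelium, had a similar order in library 1 and not in library 2, at 391 against 1164 CPM and 280 against 227 CPM. Whether the divisions of CXCL12 and AQP1 differ between the libraries was not tested. Markers of other cell types did not move one way with SCIN. The smooth muscle gene ACTA2 moved in opposite directions in the 2 libraries, by -1.05 and 0.84. The plasma cell gene JCHAIN, of which 1 barcode of library 2 held 92.1% of the UMIs, did so by 0.94 and -4.30. TAGLN, the other abundant contractile gene, was at 687 against 663 CPM and 1448 against 521 CPM. The stromal gene COL3A1 was higher with SCIN in both libraries, at 3779 against 2223 CPM and 669 against 578 CPM. Their part in the other differences was not tested. With few UMIs of other cell types, 9 of 38 differences followed in library 1 and 17 of 38 in library 2 left their counting interval.

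**Figure D3:**
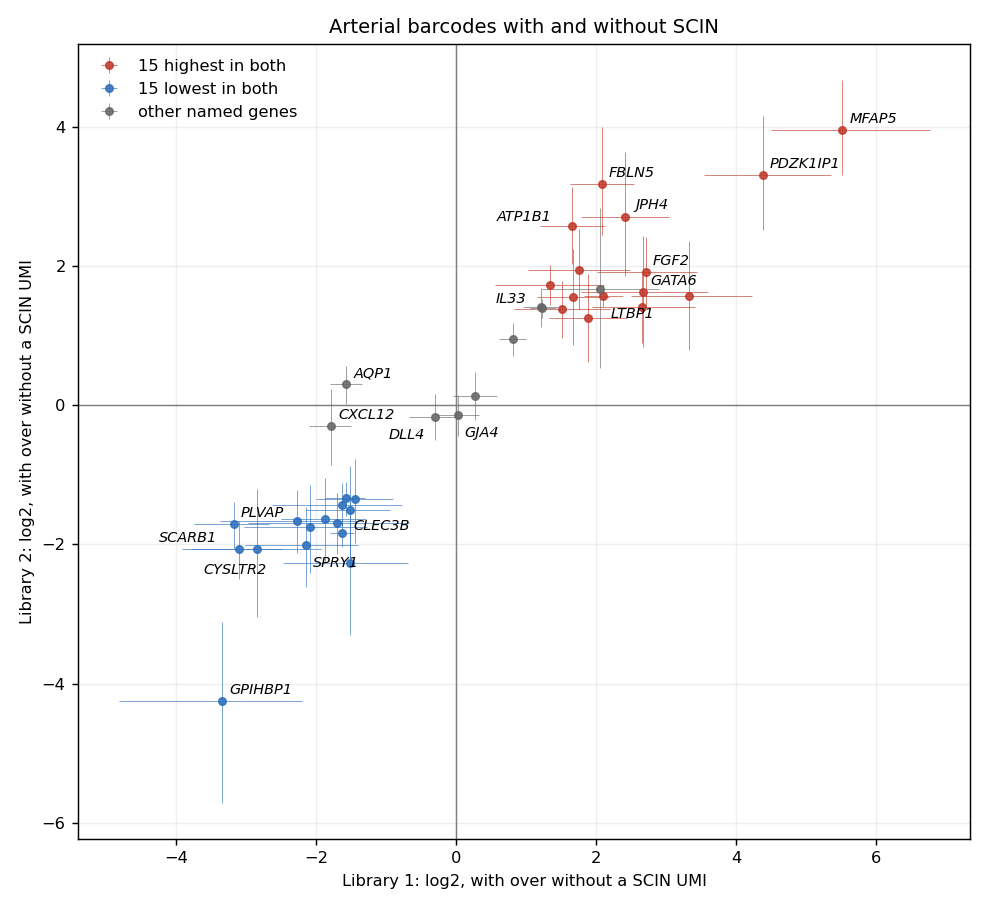
Log2 difference between arterial barcodes with and without a SCIN UMI, library 1 across and library 2 upwards, with 95% counting intervals, for the 15 genes highest in both libraries (red), the 15 lowest (blue) and 9 other named genes (grey). MFAP5 and PDZK1IP1 lie farthest to the upper right, GPIHBP1 farthest to the lower left, GJA4 and DLL4 near 0, and CXCL12 and AQP1 are low in library 1 alone.

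Between the libraries, the arterial barcodes differed in a large part of their genes. Among 6318 genes whose mean reached 10 CPM, 1272 (20.1%) lay 2-fold or more above library 1 in library 2 and 582 (9.21%) at least 2-fold lower. In both directions the spread was wide around a median log2 ratio of -0.03, beside -0.06 in venous-type and -0.06 in capillary-type barcodes. Of 14 arterial markers outside the rule, 1 was 2-fold higher and 4 were 2-fold lower, with a median of -0.31 beside -0.84 and -0.47. Of 13 Notch pathway genes measured, 0 were 2-fold higher and 3 were 2-fold lower, with a median of -0.17 beside -0.60 and -0.47 in the other types. NOTCH4 differed by -0.43, DLL4 by -0.17, JAG1 by -0.81 and HEY1 by 0.40, whereas MFNG, a modifier of Notch receptors, differed by -1.04 and HEY2 by -1.03. Of 13 connexin, claudin and junction genes, 0 passed 2-fold in either direction and 12 were lower, the rule genes GJA5 and CLDN5 among them, with GJA4 at -0.19 and GJA1 at -0.90.

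Growth factor genes of the vessel wall are set beside all genes, of which 20.1% were 2-fold higher and 9.21% 2-fold lower in library 2. Of 13 VEGF, angiopoietin and apelin genes, 2 were 2-fold higher and 1 was 2-fold lower. Nothing is read from such small counts, here or in the lists that follow in this paragraph. FLT1, a VEGF receptor known to act as a decoy, stood at 226 and 494 CPM, and KDR at 176 and 112 CPM. VEGFC, the ligand known best for lymphatic growth, was at 416 and 444 CPM in arterial barcodes, beside 209 and 142 CPM in capillary-type barcodes. Of 17 BMP and TGF-beta genes, 7 were higher and 10 lower, and by 2-fold 3 were higher and 1 lower. ID1, a target of BMP signalling, stood at 506 and 238 CPM, and BMPR2, a BMP receptor, at 117 and 472 CPM. Among 12 semaphorin and guidance genes, SEMA3F (7.74 and 46.9 CPM) and SEMA6A (47.0 and 131 CPM) were the 2 past 2-fold higher, and the 1 past 2-fold lower was the rule gene SEMA3G. Of 17 flow response and vasoactive genes 2 were higher and 0 lower by 2-fold. KLF2, a transcription factor induced by flow, stood at 1160 and 981 CPM, KLF4 at 257 and 232 CPM and NOS3, endothelial nitric oxide synthase, at 84.6 and 122 CPM.

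CXCL12 had the lowest ratio among genes of at least 100 CPM of which arterial barcodes held at least 50% of the highest group's level. This chemokine, known to guide leukocytes and to pattern arteries, stood at 667 and 78.1 CPM in the respective libraries, giving a log2 ratio of -3.09 (-3.34 to -2.85), or 8.53-fold lower in library 2. A CXCL12 UMI was found in 69.2% of the arterial barcodes of library 1 and 31.1% of those of library 2, and in 37.5% and 11.5% after thinning. The other endothelium differed alike, by -2.59 in venous-type and -3.15 in capillary-type barcodes, whereas stromal-type barcodes stood at 59.8 and 48.5 CPM. The arterial barcodes held more of it than any other group in library 1, and the gap to stromal-type barcodes was small in library 2. SPP1, the gene of osteopontin, stood at 231 and 40.5 CPM, a ratio of -2.51, beside -3.30 and -3.68 in the other types. RGS5, a gene of pericytes, had a still lower ratio of -3.53 at 277 and 23.9 CPM, and was higher in stromal-type barcodes, at 625 and 145 CPM.

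AQP1 and several matrix genes were lower in library 2 too. AQP1 stood at 975 and 243 CPM. AQP3, another water channel, stood at 66.4 and 8.79 CPM, but 1 barcode held 101 of its 120 UMIs in library 1. After thinning its sums were at the floor in both libraries, so the value of 0.29 is no measured ratio. Of 12 basement membrane and elastic matrix genes, 6 were at least 2-fold lower, beside 9.21% of all genes, and 0 at least 2-fold higher. Their median was -0.87 beside -1.07 and -0.93 in the other types. SPARC stood at 619 and 256 CPM, SPARCL1 at 1253 and 502 CPM, MGP, which keeps vessel walls from calcifying, at 233 and 84.0 CPM, and LAMB2, a laminin chain, at 222 and 90.3 CPM. COL4A2, a chain of basement membrane collagen, was at 440 and 469 CPM. Stromal markers were lower as well: their median over 10 genes was -1.49, and stromal-type barcodes themselves held SPARC at 1790 and 653 CPM. The part of stromal RNA in the matrix difference was not tested.

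Of 11 interferon-linked genes, 8 were higher and 3 lower in library 2. By 2-fold, 6 were higher, beside 20.1% of all genes, and 0 lower, with a median of 1.29 beside 1.18 and 1.07 in the other types. GBP1, a guanylate-binding protein, stood at 191 and 841 CPM, MX2 at 60.8 and 329 CPM and IRF1 at 133 and 447 CPM. IFIT3 was at 282 and 277 CPM and IRF9 at 191 and 176 CPM. Among 12 chemokine and cytokine genes, 8 were higher and 4 lower, and by 2-fold 5 were higher and CXCL12 lower. The chemokine CXCL2 was at 408 and 1129 CPM, and CCL2 at 21.6 and 96.7 CPM, both lower than in venous-type and capillary-type barcodes. IL33 was at 544 and 836 CPM.

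Immediate early and stress genes, which dissociation is known to raise, were higher in 21 of 23 cases, 7 of them by at least 2-fold, beside 20.1% of all genes. Their median was 0.65 beside 0.91 and 0.91 in the other types. CEBPD stood at 24.3 and 504 CPM and ATF3 at 506 and 2022 CPM. Of 9 steroid receptor and partner genes, 6 were 2-fold higher, beside the same 20.1% of all genes, and 0 were 2-fold lower. NR3C2, the mineralocorticoid receptor, stood at 31.0 and 266 CPM and FKBP5 at 29.9 and 79.6 CPM. ESR1, the oestrogen receptor, stood at 58.6 and 128 CPM, but without called doublets its ratio of 1.13 became -0.21, and stromal-type barcodes held 257 and 659 CPM.

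**Figure D4:**
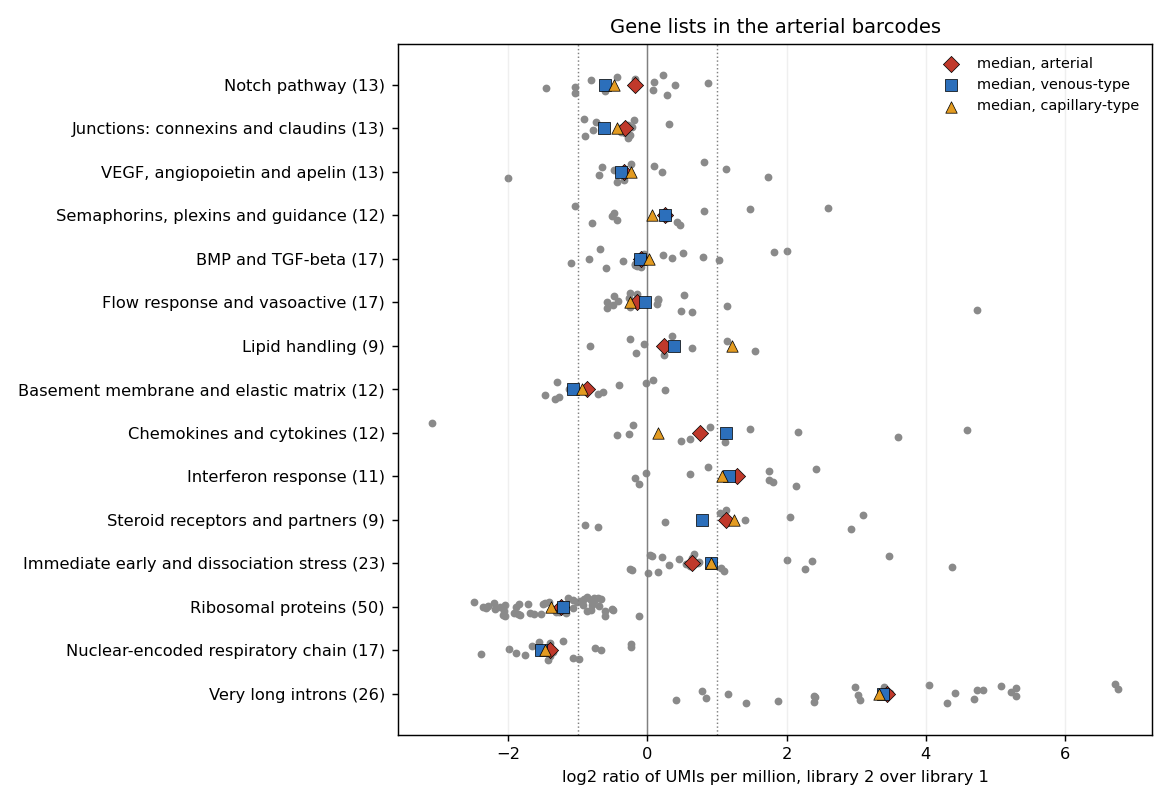
Log2 ratio of library 2 over library 1 in the arterial barcodes for each measured gene of 15 lists (grey points, number of genes in brackets), with the median in arterial, venous-type and capillary-type barcodes and dotted lines at 2-fold. Notch and junction genes lie mostly within 2-fold, with 12 of 13 junction genes below 0 and 3 of 13 Notch genes at least 2-fold lower. Ribosomal and respiratory chain genes lie to the left and genes with very long introns to the right. The medians of these last lists are close together in the 3 groups.

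Genes that differed alike in the 3 endothelial groups made up most of the highest and lowest ratios. Of 26 genes with very long introns, 26 were higher in library 2, 23 of these by 2-fold or more, with a median of 3.44 beside 3.38 and 3.33 in the other types. LRMDA stood at 6.08 and 642 CPM, CCSER1 at 63.1 and 1782 CPM and SOX5 at 39.8 and 1573 CPM. Ribosomal protein genes went the other way, 50 of 50 lower and 31 at least 2-fold lower, with a median of -1.23 beside -1.21 and -1.38. RPL22 stood at 1184 and 211 CPM. Respiratory chain genes were lower in 17 of 17 cases, 12 by 2-fold, with COX7B at 253 and 48.3 CPM. Over all genes 20.1% were 2-fold higher and 9.21% 2-fold lower. Ribosomal protein UMIs took 11.9% of the arterial UMIs in library 1 and 5.38% in library 2, and the long-intron list 0.121% and 1.26%. Stromal-type barcodes had 14.9% and 5.41%, and 0.0665% and 0.883%. Their part in the other ratios was not tested.

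Gland transcripts formed the other extreme. ACP5 stood at 2.77 and 2603 CPM, RBP4, a retinol carrier, at 6.08 and 1537 CPM, and UABP-2, the uteroferrin-associated protein, at 0 UMIs and 1024 CPM, which is at least 617-fold higher against a floor of 3 UMIs per library. The carbonyl reductase gene CBR2 had 0 UMIs and 140 CPM, at least 84.4-fold higher. Each of these was higher in stromal-type and immune-type barcodes of library 2 than in the arterial ones: ACP5 at 4103 and 4577 CPM, RBP4 at 2544 and 2662 CPM, UABP-2 at 1547 and 1858 CPM and CBR2 at 253 and 262 CPM. TUFT1, PAX8, SAL1 and SOD3 had the same order between the groups.

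Where the arterial barcodes differed between the libraries by more or less than the other endothelium is given as ratios side by side, and none of these differences was tested. SLC7A11, which imports cystine, stood at 16.6 and 118 CPM in arterial barcodes, a log2 ratio of 2.83, beside 0.64 in venous-type and 0.80 in capillary-type barcodes. It had a UMI in 6.51% and 31.5% of the arterial barcodes, and in library 2 they held the highest level of the 5 groups. NEIL3, a DNA glycosylase, stood at 5.53 and 105 CPM, a ratio of 4.25 beside 3.47 and 3.05, and it too was highest in arterial barcodes. PDE4D, a phosphodiesterase gene with very long introns, stood at 39.3 and 1042 CPM, 4.73 beside 3.82 and 3.69. SPP1 was 0.98 above the mean of the other types. NMB and ATRNL1 were also above, at 233 and 131 CPM in library 2, where stromal-type barcodes held more, at 405 and 436 CPM. DCUN1D3 stood at 7.19 and 161 CPM, beside 9.29 and 136 CPM in stromal-type barcodes. RORB, at 185 and 175 CPM, was highest in stromal-type barcodes.

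CXCL10, a chemokine induced by interferon, stood at 4.98 and 120 CPM in arterial barcodes, but its ratio was 5.88 in venous-type and -1.71 in capillary-type barcodes. Only 9 UMIs in library 1 carried it, and with 1 SEMA3G or GJA5 UMI as the threshold the ratio of 4.59 became -0.28. KCNJ2, an inwardly rectifying potassium channel of vessels, also had a ratio above both other types, 0.49 beside -2.54 and -0.99, at 44.8 and 63.0 CPM. HEY1 was below both, at 112 and 148 CPM, a ratio of 0.40 beside 1.81 and 1.24.

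The genes with a ratio below that of the other endothelium included receptors and transporters. SLCO2A1, the prostaglandin transporter, stood at 171 and 80.6 CPM in arterial barcodes, a ratio of -1.09, while venous-type barcodes went from 112 to 225 CPM. NPR3, the clearance receptor of natriuretic peptides, stood at 123 and 87.9 CPM, -0.49 beside 0.58 and 1.03. TGFB2 stood at 163 and 153 CPM, -0.09 beside 1.17 and 1.01. ICAM1, an adhesion molecule for leukocytes, stood at 65.8 and 134 CPM, 1.03 beside 2.55 and 1.88. In library 2 the venous-type barcodes therefore held more SLCO2A1, TGFB2 and ICAM1 than the arterial ones. MECOM, a transcription factor of arterial endothelium, stood at 248 and 1241 CPM in arterial barcodes and at 55.7 and 952 CPM in venous-type barcodes, so that its excess over venous-type was 2.15 in library 1 and 0.38 in library 2 on the log2 scale. NEBL (1.76 beside 3.52 and 3.33) and MPPED2 (1.09 beside 2.48 and 2.39) had the same order. FABP5, a fatty acid binding protein, stood at 66.9 and 56.6 CPM in arterial barcodes, -0.24 beside 2.82 and 2.02, but with few UMIs of other cell types its ratio was 1.15.

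**Figure D5:**
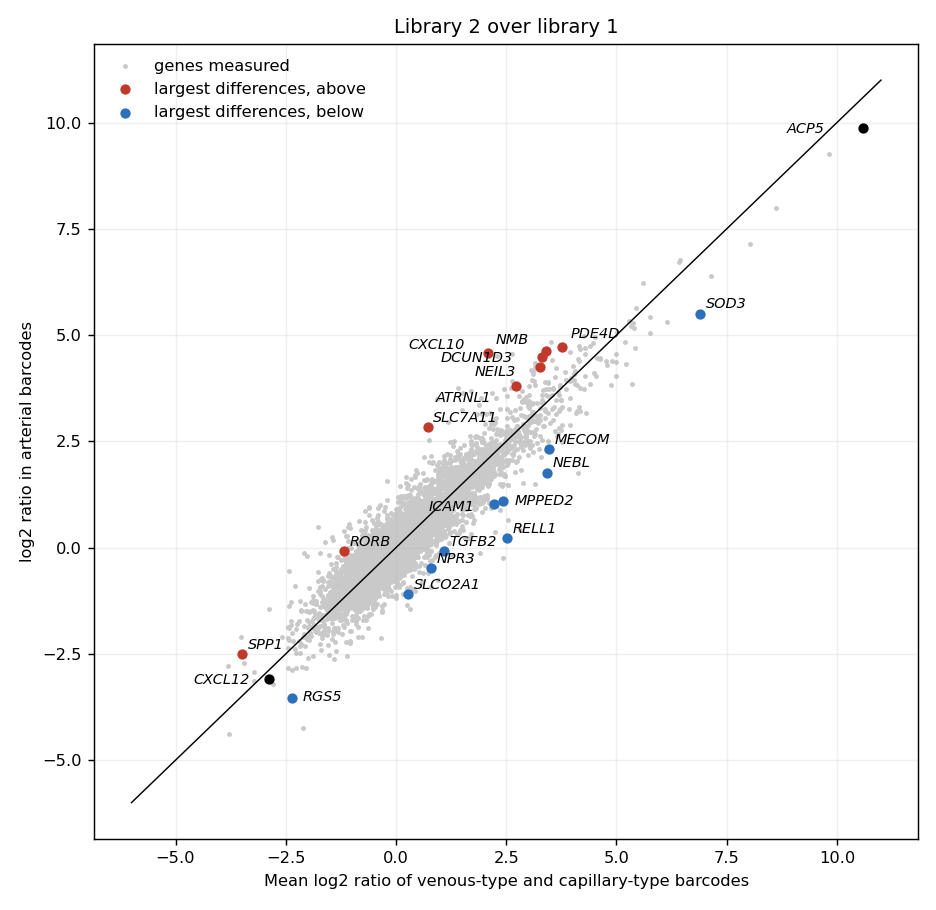
Log2 ratio of library 2 over library 1 in arterial barcodes against the mean of the ratios in venous-type and capillary-type barcodes for 6318 genes, with the line of equal ratios. Most genes lie along the line, CXCL12 included, with CXCL10 and SLC7A11 farthest above it and RELL1 farthest below among the genes marked in colour.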

How the data were processed

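Tissue was digested with enzymes and 10x Genomics 3' droplet libraries were made, per the labels' protocols. Each deposited matrix gives raw UMI counts of called cells, made with Cell Ranger 6.1.0 per the file headers, while the submitters' processing notes name 2.1.1. For the genome build and intron reads nothing is given in the sources used here. Library 1 held 10045 barcodes (45388759 UMIs, median 3431) and library 2 held 15093 (87514969, median 4335). Of 26881 gene rows 16128 had no symbol, and named rows took 72.1% and 71.0% of UMIs. Genes with close paralogs, or with overlapping or antisense neighbours, are uncertain.

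Counts were summed per library and group and scaled to all UMIs of the group (CPM), with exact Poisson intervals. Log2 ratios have exact conditional binomial intervals, and sums under 3 UMIs were set to 3. Barcodes are not replicates, so no test was made. Stromal-type barcodes had at least 5 UMIs of DCN and COL1A1 and 0 of CLDN5 and PTPRC, and hold muscle too. Immune-type barcodes had at least 2 of PTPRC and 0 of CLDN5 and COL1A1. Doublets were called with Scrublet (scanpy 1.11.5) and kept. TMM factors came from edgeR 4.0.16 in R 4.3.3. A simulation of 6318 genes was also run, with 200 of them changed by 1.5 on the log2 scale. It picked up 97.5% of the changed genes, and 0.262% of the unchanged ones passed 2-fold. The simulated ratio lay inside its interval in 95.7% of cases. The intervals cover counting error only, so these rates do not account for variation between barcodes or animals. The 0.262% is therefore no error rate for the 2-fold genes reported here.

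Named genes were those of 31 lists (393 of 554 genes had a symbol), the 12 highest and 12 lowest library ratios from 100 CPM with at least 50% of the highest group's level, the 15 leading arterial genes from 50 CPM, and the 10 genes on each side that differed most from the other endothelium. Members and lists were chosen with earlier results of these data known. CLEC3B, MARCKS, PDE2A, SPOCK2 and the genes of the SCIN split were chosen after their values were seen. Alternatives changed the rule's threshold, doublets, cell filter, thinning, weighting, scaling and gene minimum. A few genes that these rules name are not reported here.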

Additional observations from a re-analysis of the deposited data

Results flagged for a closer look

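RELL1 was singled out because its difference between arterial and venous-type barcodes had opposite signs in the 2 libraries. RELL1, a membrane protein of the TNF receptor family's RELT group, was 1.68 higher on the log2 scale in arterial than in venous-type barcodes of library 1 and -1.45 in library 2. Its arterial level was 99.6 and 116 CPM, while the venous-type level was 31.0 and 317 CPM and the capillary-type level 50.8 and 162 CPM. The difference between the libraries was not tested. The arterial ratio between the libraries lay between -0.24 and 0.51 under the alternatives, beside 0.22 as reported.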

How the results depend on the processing

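No paired analysis was possible because each group held 1 library. The share of arterial barcodes in library 1 was 4.97% with a threshold of 1 SEMA3G or GJA5 UMI, 2.53% with 3, 1.84% with few UMIs of other cell types and 1.14% after thinning. In library 2 these were 3.2%, 1.22%, 0.749% and 0.325%. The difference of -1.58 percentage points became -1.09 with few UMIs of other types and -0.81 after thinning. From 50 CPM, 679 genes were 2-fold higher and 240 lower in library 2, and from 1 CPM 893 were lower, since fewer or more genes were counted. Of all 2-fold genes 68.6% were higher, 60.6% with few UMIs of other types and 60.1% without ribosomal UMIs, a scaling that moved the median of all genes from -0.03 to -0.14.

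Some results reversed. With few UMIs of other types, APLNR between the libraries was 0.59, KRT18 was -0.14 and HEY2 in library 2 over other endothelium -0.11. Thinned sums of APLN, AQP3 and HEYL were at the floor, which gives 0.29 and is no measured reversal. CXCL10 was -0.28 with a threshold of 1 UMI and ESR1 was -0.21 without called doublets. The median of the smooth muscle and pericyte list was 0.12 without called doublets, that of the macrophage list -0.58 from 1 CPM, and that of the proliferation list 0.29 after thinning and 0.74 with barcodes weighted equally. The cause of each was not tested. Over the named genes and these alternatives, 1258 library ratios stayed within their counting interval, 319 moved beyond it and 7 reversed, those at the floor included. The SCIN split had 3 alternatives, chosen after seeing the data. Of 38 differences followed in each library, 9 and 17 left their counting interval with few UMIs of other types, 6 and 12 after thinning and 1 and 7 without called doublets. MFAP5 ranged from 4.24 to 6.67 in library 1 and from 3.93 to 6.42 in library 2. GPIHBP1 ranged from -3.34 to -1.74 and from -4.36 to -2.75. The -1.74 and -2.75 came after thinning, lay outside their intervals and were set by the floor of 3 UMIs for barcodes with SCIN. CXCL12 in library 2 ranged from -0.57 to 1.07, GJA4 there from -0.19 to 0.64, and HLX in library 1 from -1.53 to -0.16. Genes under about 10 CPM, with few UMIs, are limited by depth.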
